A study of Homo sapiens with 8 samples.

Results

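The Notch receptors, ligands and target genes of SCC25 cells were followed through both knockdowns of ETS1, as 10 of the 56638 genes listed in each count table. They were taken by name, as the 3 receptors NOTCH1, NOTCH2 and NOTCH3, the 3 ligands JAG1, JAG2 and DLL1, and the 4 targets HES1, HEY1, HES4 and NRARP. SCC25 is an established line of head and neck squamous cell carcinoma, and ETS1 is a transcription factor of the ETS family. In the short-term experiment cells received a pool of siRNAs against ETS1 (ETS1 siRNA) or non-targeting siRNAs (siRNA control). In the long-term experiment cells carried a lentiviral hairpin against ETS1 (shETS1, for which the labels name 1 construct) or a non-targeting hairpin (shCON) and were selected with puromycin. Each group had 2 libraries, 8 in all, and all cells were grown in serum with hydrocortisone and had no other genetic change named in the labels. The question put to these genes was how a signalling pathway used in squamous cells differed after short and after lasting loss of ETS1.

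Notch receptors are membrane proteins that are cut when a neighbouring cell presents a Jagged or Delta ligand. The freed intracellular part joins the DNA-binding protein RBPJ and a Mastermind co-activator in the nucleus, and the complex switches on HES and HEY repressors and NRARP, which dampens the signal. In stratified squamous epithelium Notch is known for driving cells from the basal layer into differentiation, and inactivating mutations of NOTCH1 are a known feature of head and neck squamous carcinoma.

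The sequences just upstream of 3 of the targets are shown because RBPJ binds in that position at HES genes. Each run holds the 250 bases before the RefSeq start of the gene on GRCh38.p14, read 5′ to 3′ on the strand of the gene, and capitals mark the RBPJ core TGGGAA. They lie at chr3:194135898-194136147 on the plus strand for HES1, at chr1:1000098-1000347 on the minus strand for HES4 and at chr9:137302272-137302521 on the minus strand for NRARP.
HES1: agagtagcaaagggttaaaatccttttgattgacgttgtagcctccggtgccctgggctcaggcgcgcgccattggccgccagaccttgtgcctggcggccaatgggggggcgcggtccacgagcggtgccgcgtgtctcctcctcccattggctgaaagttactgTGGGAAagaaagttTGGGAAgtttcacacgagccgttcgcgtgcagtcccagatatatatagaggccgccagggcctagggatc
HES4: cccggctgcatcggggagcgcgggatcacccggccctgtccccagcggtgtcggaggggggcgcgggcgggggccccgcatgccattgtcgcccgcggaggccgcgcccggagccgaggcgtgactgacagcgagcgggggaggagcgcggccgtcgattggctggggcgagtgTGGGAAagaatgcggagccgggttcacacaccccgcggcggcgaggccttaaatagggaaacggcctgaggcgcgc
NRARP: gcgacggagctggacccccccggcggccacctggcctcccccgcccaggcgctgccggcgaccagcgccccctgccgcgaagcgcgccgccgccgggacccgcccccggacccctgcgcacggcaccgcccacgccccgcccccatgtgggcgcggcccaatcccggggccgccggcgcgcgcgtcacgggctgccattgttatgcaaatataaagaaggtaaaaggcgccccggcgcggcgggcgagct
HES1 held 2 cores, beginning 84 and 70 bases before the start, and HES4 held 1 core, beginning 76 bases before it. Both strands were searched in the same 250 bases of 8 of the 10 members (all except DLL1 and HEY1), and the core was found in HES1 and HES4 and not in the other 6. Of 35116 RefSeq promoters of this length, 20.8% held the RBPJ core. The 7-base ETS site CCGGAAG was found in 0 of the 8 windows and in 8.52% of all promoters. The shorter ETS core GGAA, which the RBPJ core TGGGAA itself contains, was not searched for. A match is a description of letters and not a binding site, and its absence says only that these letters are not in this window.

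Total counts per library lay between 15954616 and 25953213. Levels are given in CPM, the read count of a gene per library size after scaling within a table, so CPM are compared only between the groups of one table. The targeted gene, ETS1, went from 288 and 248 CPM (siRNA control) to 17.4 and 13.2 CPM (ETS1 siRNA), and from 82.3 and 72.1 CPM (shCON) to 9.76 and 11.1 CPM (shETS1). The 6 squamous epithelial markers fixed for the check of the cell line (KRT5, KRT6A, KRT14, KRT17, TP63 and CDH1) were present in all 8 libraries, with a summed level of 14300 to 25500 CPM, while 6 endothelial and 6 leukocyte markers summed to 0.517 to 1.34 and 1.77 to 4.01 CPM, with 1 to 4 of each list at 0 in a library. The shCON libraries held 5.61% and 6.63% of their counts in 5 structural RNAs and the shETS1 libraries 12.3% and 9.64%. The siRNA libraries held at most 0.00339%. Both shETS1 libraries were above both shCON libraries in this share, so within the shRNA table it cannot be told apart from the hairpin. Apart from a scaling without these RNAs, given further below, the part of this share in the changes of the Notch genes was not tested.

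Within a library, levels of different genes were compared per length, in TPM, which divides counts by the exon length of a gene and by the sum of such values in the library. In siRNA control, JAG1, a Jagged ligand, was the most abundant of the 10 with 282 and 300.1 TPM, followed by JAG2 with 100.3 and 116 TPM and by HES1 with 63.2 and 86 TPM. NOTCH2 was the most abundant receptor with 45 and 45.4 TPM, above NOTCH1 with 17.6 and 22.1 TPM. NOTCH3, with 0.952 and 1.63 TPM, and HEY1, with 0.342 and 1.02 TPM, were lowest and overlapped each other. HES1 and HES4, HES4 and NOTCH2, and NOTCH2 and DLL1 also overlapped as neighbours in this order. The mean levels followed the same order after ETS1 siRNA, where HES1 and HES4, NOTCH2 and DLL1, and NRARP and NOTCH1 overlapped.

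In the shRNA table HES1 took the first place, with 105 and 109 TPM in shCON. JAG1 followed with 76.9 and 91.2 TPM, JAG2 with 59.9 and 62.5 TPM and HES4 with 48.0 and 48.1 TPM, and DLL1 and NRARP were the one pair of neighbours that overlapped. In shETS1, JAG2, HES4 and JAG1 lay together between 48.7 and 56.2 TPM, but with the length of the longest coding transcript JAG1 stood above both (56.2 and 57.2 TPM, against 40.3 and 43.6 TPM for JAG2 and 43.7 and 36.9 TPM for HES4). NOTCH3, with 3.70 and 4.89 TPM, stood above NOTCH1, with 2.00 and 2.96 TPM, whereas in shCON NOTCH1, with 4.33 and 5.69 TPM, stood above NOTCH3, with 3.24 and 4.29 TPM. The TPM of a library depends on all its RNAs, structural RNAs included, so TPM is used here for order and shares within a library and not for changes between groups.

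**Figure D1:**
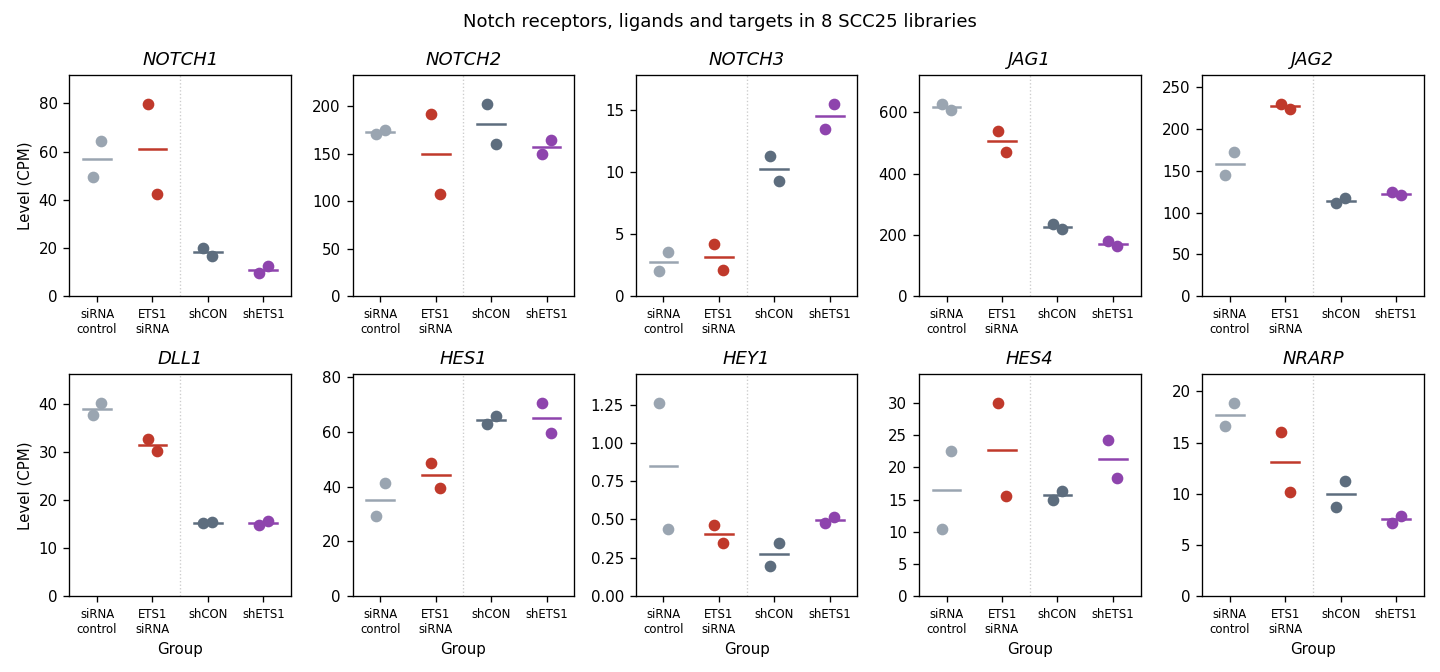
Level of each of the 10 Notch genes in the 8 libraries (vertical axis, CPM, from 0 and scaled separately for each gene; horizontal axis, the 4 groups). Points are libraries and short lines are group means, and the dotted line separates the 2 tables, across which CPM are not compared. JAG1 lies lower in both knockdowns than in their controls, while the 2 ETS1 siRNA libraries lie far apart for NOTCH1 (79.9 and 42.3 CPM) and NOTCH2 (192 and 107 CPM).

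Each knockdown was then compared with its own control, and calls were made by edgeR's quasi-likelihood test, adjusted over all genes by Benjamini and Hochberg, with a threshold of 0.1 on the adjusted p. In bulk RNA, fewer cells of a kind and less RNA per cell cannot be told apart. The labels do not say that the libraries of a group came from separate cultures (the study's methods name biological replicates for the siRNA), so p-values measure the spread between these libraries, which may be technical. After siRNA 9 of the 10 members could be tested and 0 were called, with 3 at an unadjusted p under 0.05 (JAG1, JAG2 and DLL1) and 1 called with DESeq2 (JAG2). Of all 14742 genes tested, 2721 had an unadjusted p under 0.05 in edgeR, which is the background for such counts after siRNA. The share of all 14742 genes called was 3.41%, with 1.13% higher and 2.27% lower. After shRNA all 10 were tested and 6 were called, 2 higher (NOTCH3 and HES4) and 4 lower (NOTCH1, NOTCH2, JAG1 and NRARP). The share of all 16481 genes called was 60.6%, with 29.7% higher and 30.9% lower, so the members were called about as often as genes at large. The median log2 fold change of the members was 0.10 after siRNA and 0.00038 after shRNA, beside 0.0018 and 0.00066 over all genes. With library size only, the median over all genes after shRNA was -0.13, so values under that scaling are to be read against this shift.

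Among the receptors, NOTCH1 (chromosome 9, 139388885 to 139440500, minus strand, GRCh37), a receptor known for its role in squamous differentiation, was at 49.6 and 64.4 CPM in siRNA control and at 79.9 and 42.3 CPM after ETS1 siRNA. The knockdown libraries lay on either side of the controls, and the log2 fold change of 0.10 had a 95% interval from -0.51 to 0.71 (adjusted p 0.88). The shCON libraries held 19.9 and 16.5 CPM of it and the shETS1 libraries 9.72 and 12.5 CPM. Both shETS1 libraries were below both shCON libraries, and NOTCH1 fell by 0.71 on the log2 scale (SE 0.13, adjusted p 0.00021). The call held under every alternative run (adjusted p 1.2e-11 to 0.054).

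NOTCH2 (chromosome 1, 120454176 to 120643366, minus strand), the most abundant receptor, was at 171 and 175 CPM in siRNA control and at 192 and 107 CPM after ETS1 siRNA. One knockdown library was above and one below the controls, for a log2 fold change of -0.21 (95% interval -0.76 to 0.33, adjusted p 0.68). In the shRNA libraries it was at 203 and 161 CPM in shCON and at 149 and 165 CPM in shETS1. These groups overlapped, since shETS1 replicate 2 was above shCON replicate 2. NOTCH2 fell by 0.21 (SE 0.09, adjusted p 0.071), and the call was lost with DESeq2 (adjusted p 0.13), with the replicate number as a block (adjusted p 0.13), with an adjusted p under 0.05 and in the fit of all 8 libraries (adjusted p 0.43). It was also lost without shCON replicate 1 (-0.04, adjusted p 0.81) and without shETS1 replicate 1 (-0.14, adjusted p 0.15), and over all alternatives the adjusted p ranged from 0.0012 to 0.81. NOTCH2 has near-identical partial copies, of which NOTCH2NL had 62 to 457 counts per library, so its reads may have been split by the counting.

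NOTCH3 (chromosome 19, 15269849 to 15311806, minus strand), a receptor known from vascular smooth muscle and also found in epithelia, had 40 and 57 counts in siRNA control and 72 and 43 counts after ETS1 siRNA. Its levels of 2.02 and 3.56 CPM and of 4.19 and 2.12 CPM overlapped, and the log2 fold change was 0.18 (95% interval -0.73 to 1.10, adjusted p 0.85). With the hairpins, NOTCH3 stood at 11.3 and 9.29 CPM in the controls and at 13.5 and 15.5 CPM in shETS1. Both shETS1 libraries were above both shCON libraries, and NOTCH3 rose by 0.50 (SE 0.13, adjusted p 0.0031), the opposite direction to NOTCH1 in the same libraries. The call was lost in the fit of all 8 libraries alone (adjusted p 0.15), with a range of 1.3e-05 to 0.15 over the alternatives.

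Of the ligands, JAG1 (chromosome 20, 10618332 to 10654647, minus strand) was at 628 and 608 CPM in siRNA control and at 539 and 470 CPM after ETS1 siRNA. Both knockdown libraries were below both controls, and the log2 fold change of -0.29 (SE 0.13) did not pass the test over all genes (adjusted p 0.26). JAG1 in shCON measured 237 and 218 CPM, against 179 and 163 CPM in shETS1. The groups did not overlap, and JAG1 fell by 0.41 (SE 0.08, adjusted p 2e-04), a call that held under every alternative run (adjusted p 6.1e-12 to 0.0063). JAG1 was below its control in all 4 knockdown libraries, and the change after shRNA differed from that after siRNA by -0.14 (95% interval -0.46 to 0.18, adjusted p 0.51).

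JAG2 (chromosome 14, 105607319 to 105635161, minus strand), the second Jagged ligand, was at 144 and 172 CPM in siRNA control and at 229.9 and 224 CPM after ETS1 siRNA. Both knockdown libraries were above both controls, with a log2 fold change of 0.52 (SE 0.14, 95% interval 0.20 to 0.83) that missed the threshold (adjusted p 0.12). With DESeq2 the adjusted p was 0.023, and over the alternatives it ranged from 0.0011 to 0.81. With the hairpins, JAG2 measured 112 and 117 CPM in the controls and 125 and 121 CPM in shETS1. These groups did not overlap either, but the log2 fold change was 0.10 (SE 0.07, adjusted p 0.24). It was -0.02 with library size only, where the median over all genes was -0.125.

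DLL1 (chromosome 6, 170591294 to 170615653, minus strand), a Delta ligand, was at 37.7 and 40.2 CPM in siRNA control and at 32.7 and 30.2 CPM after ETS1 siRNA. Both knockdown libraries were lower, and the change of -0.31 on the log2 scale had an SE of 0.12 (adjusted p 0.24). In the shRNA table DLL1 was at 15.1 and 15.5 CPM in shCON and at 14.7 and 15.5 CPM in shETS1. These groups overlapped within a narrow range, and the log2 fold change was -0.01 (95% interval -0.24 to 0.21, adjusted p 0.92). DLL1 overlaps FAM120B on the opposite strand, and the strand setting of the counting is not given in the sources used here. How reads in the shared stretch were counted is therefore not known.

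Among the targets, HES1 (chromosome 3, 193853937 to 193856521, plus strand), the repressor most often read as a Notch output and the one with 2 RBPJ cores in the sequence above, was at 29.3 and 41.2 CPM in siRNA control and at 48.6 and 39.6 CPM after ETS1 siRNA. The groups overlapped, and the change of 0.33 on the log2 scale had an SE of 0.18 (adjusted p 0.38). HES1 in the hairpin libraries stood at 62.8 and 66.0 CPM without and at 70.4 and 59.7 CPM with the ETS1 hairpin. The shETS1 libraries lay on either side of the controls, and the log2 fold change was 0.01 (95% interval -0.17 to 0.19, adjusted p 0.90). With library size only it was -0.11, close to the shift of all genes under that scaling.

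HES4 (chromosome 1, 934342 to 935552, minus strand), a related repressor with 1 RBPJ core upstream, was at 10.4 and 22.5 CPM in siRNA control and at 30.0 and 15.6 CPM after ETS1 siRNA. These groups overlapped, and the log2 fold change of 0.47 had a 95% interval from -0.40 to 1.34 (adjusted p 0.54). Levels of 15.0 and 16.4 CPM in shCON compared with 24.3 and 18.4 CPM in shETS1. Both shETS1 libraries were higher, and HES4 rose by 0.44 (SE 0.12, adjusted p 0.0062). The call was lost without shETS1 replicate 1 (0.22, adjusted p 0.13) and in the fit of all 8 libraries (adjusted p 0.34), with a range of 5.2e-07 to 0.34 over the alternatives.

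NRARP (chromosome 9, 140194083 to 140196723, minus strand), which encodes a small ankyrin repeat protein that binds the RBPJ complex and limits Notch signalling, was at 16.6 and 18.8 CPM in siRNA control and at 16 and 10.2 CPM after ETS1 siRNA. Both knockdown libraries were lower, and the change of -0.44 on the log2 scale had an SE of 0.22 (adjusted p 0.33). NRARP levels were 8.67 and 11.2 CPM in the shCON libraries against 7.15 and 7.81 CPM in shETS1. The groups did not overlap, and NRARP fell by 0.41 (SE 0.15, adjusted p 0.023). The call was lost with DESeq2 (adjusted p 0.11), in the fit of all 8 libraries (adjusted p 0.13) and without shCON replicate 2 (-0.21, adjusted p 0.37), with a range of 0.0026 to 0.37 over the alternatives. HES4 and NRARP, both Notch targets, thus changed in opposite directions after shRNA.

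HEY1, a repressor that is known as a Notch target in vessels and heart, was close to the limit of detection. It had 25 and 7 counts in siRNA control, 8 and 7 after ETS1 siRNA, and with the hairpins 5 and 9 in the controls and 11 and 13 in the knockdown. It did not pass the filter on low counts in the siRNA libraries and was not tested there. After shRNA both knockdown libraries were above both controls, with a log2 fold change of 0.85 whose 95% interval ran from -0.23 to 1.93 (adjusted p 0.17).

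The 2 groups of a comparison did not overlap for 4 of the 9 members tested after siRNA (JAG1, JAG2, DLL1 and NRARP) and for 7 of 10 after shRNA (all except NOTCH2, DLL1 and HES1). The same held for 51.9% of all genes tested after siRNA and for 76.6% after shRNA, close to the shares of the members. Single siRNA libraries weighed on these results. Without ETS1 siRNA replicate 1, the log2 fold changes were -0.68 for NOTCH2, -0.39 for JAG1, 0.50 for JAG2 and -0.79 for NRARP. Without siRNA control replicate 2, that of HES4 was 1.12. The siRNA libraries varied more between replicates, with a common dispersion of 0.0192 against 0.00402 in the shRNA libraries, and intervals were wider there for every member tested in both.

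**Figure D2:**
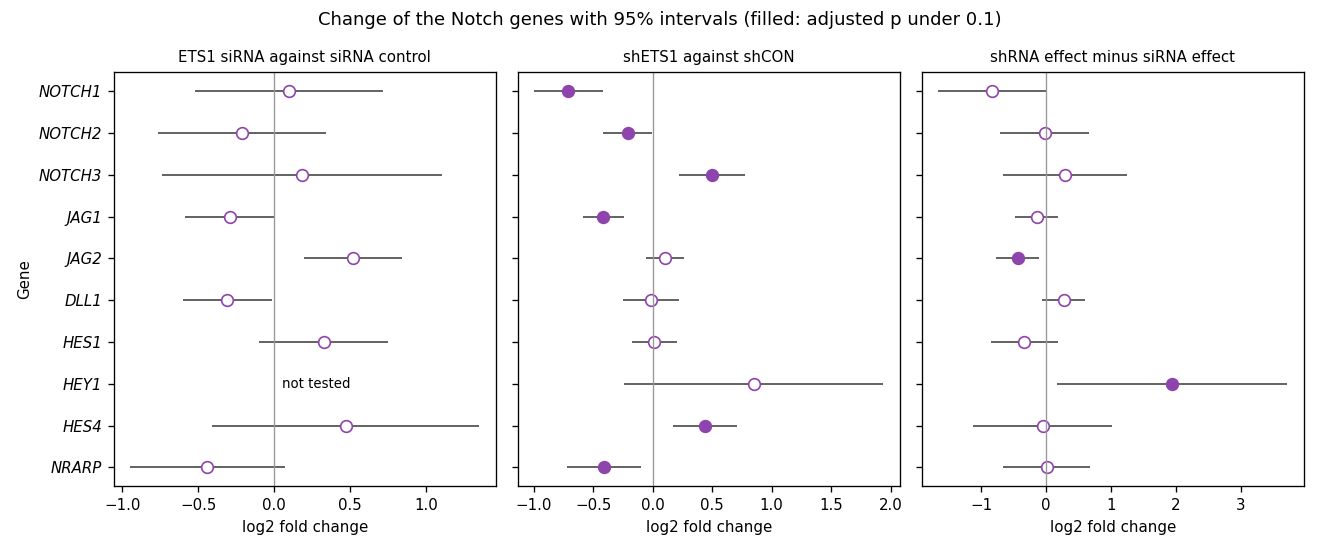
Log2 fold change (horizontal axis, separate scale in each panel) of the 10 Notch genes (vertical axis) after ETS1 siRNA, in shETS1, and for the shRNA effect minus the siRNA effect, with lines for 95% intervals of edgeR's quasi-likelihood fit. Filled points passed an adjusted p of 0.1: there are 0 after siRNA, 6 after shRNA and 2 (JAG2 and HEY1) for the difference. HEY1 was not tested after siRNA and entered the difference through a low-count filter applied over all 8 libraries.

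The direction of change was compared between the experiments, which share no control libraries. For 8 of the 9 members tested in both, the 2 log2 fold changes had the same sign, beside 7379 of 14038 genes tested in both (52.6%). NOTCH1 was the exception. Several of these signs were not firm, since DLL1 and HES1 lay within 0.02 of 0 after shRNA and changed sign under alternatives. JAG2 also changed sign with library size only, a scaling under which the median over all genes was -0.125. After siRNA the values of NOTCH2, NOTCH3 and HES4 changed sign when 1 library was left out, so of the 8 shared signs those of JAG1 and NRARP held under every alternative run.

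A test of the difference itself, in one fit of all 8 libraries, called 2 of the 10 members, beside 34.8% of 17190 genes (15.1% where the shRNA value exceeded the siRNA value and 19.7% where it was below). The low-count filter was applied here over all 8 libraries, so HEY1 was included although it did not pass in the siRNA libraries alone. For JAG2 the effect of shRNA was lower by 0.44 on the log2 scale (SE 0.14, 95% interval of the difference -0.75 to -0.12, adjusted p 0.046). The siRNA effect alone, which missed the threshold in its own 4 libraries, was past it in a fit of all 8 (0.52, adjusted p 0.016). The fit of all 8 shares its dispersion between the tables. Its common dispersion was 0.0109, against 0.0192 in the siRNA libraries and 0.00402 in the shRNA libraries. Passing the threshold there is therefore not added support for JAG2. For HEY1 the difference was 1.94 (SE 0.80, adjusted p 0.098), and without siRNA control replicate 1, the library with 25 counts, it was 0.94 (adjusted p 0.51), with a range of 0.032 to 0.51 over the alternatives. The HEY1 call was also lost with library size only (adjusted p 0.11), with the replicate number as a block (adjusted p 0.14), at an adjusted p under 0.05, without either ETS1 siRNA library (adjusted p 0.12 and 0.20) and without any 1 of the 4 shRNA libraries (adjusted p 0.12 to 0.27), and DESeq2 gave no adjusted p for it. The JAG2 call was lost with the replicate number as a block (adjusted p 0.12), without siRNA control replicate 1 (-0.32, adjusted p 0.15) and without any 1 of the 4 shRNA libraries (adjusted p 0.12 to 0.16). The difference for NOTCH1 was -0.83 (95% interval -1.65 to -0.01, adjusted p 0.12), and it was called with DESeq2 (adjusted p 0.049), without a filter (adjusted p 0.00019), without siRNA control replicate 2 (-1.04, adjusted p 0.097) and without ETS1 siRNA replicate 2 (-1.23, adjusted p 0.0021), with a range of 0.00019 to 0.39 over the alternatives. For the other 7 members it lay between -0.33 (HES1) and 0.29 (NOTCH3), with adjusted p of 0.19 or more. The 2 tables also differed in their structural RNAs, so the kind of knockdown cannot be told apart from other differences between the tables.

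The make-up of the receptor and ligand mRNA was described per length within each library, which does not depend on the scaling between libraries. These shares were chosen for description after the values had been seen and are given without a test. JAG1 made up 67.5% and 63.6% of the summed TPM of JAG1, JAG2 and DLL1 in siRNA control and 56.6% and 54.1% after ETS1 siRNA. JAG2 made up 22.6% and 26.2% in siRNA control and 35.1% and 37.4% after ETS1 siRNA. In both experiments the knockdown libraries held a smaller share of JAG1 and a larger share of JAG2 than either of their controls.

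In shCON the shares were 54.3% and 51.2% for JAG1 and 37.2% and 39.9% for JAG2. In shETS1 they were 45.2% and 43.3% for JAG1 and 45.8% and 46.7% for JAG2, which holds for union exon lengths. With the length of the longest coding transcript JAG1 was above JAG2 in shETS1, at 56.2 and 57.2 TPM against 40.3 and 43.6 TPM. The ratio of JAG2 to JAG1 counts was 0.230 and 0.284 in siRNA control, 0.426 and 0.476 after ETS1 siRNA. With the hairpins it was 0.471 and 0.536 for the controls and 0.697 and 0.742 for the knockdown. It was higher in both knockdown libraries than in both controls of each table. The DLL1 share was 9.87% and 10.2% in siRNA control and 8.35% and 8.47% after ETS1 siRNA. It went the other way with the hairpins, from 8.45% and 8.84% in the controls to 9.06% and 10.1% in the knockdown, with no overlap in either table. A share also moves with the other genes of its sum. After shRNA the log2 fold change of DLL1 itself was -0.01 (edgeR, adjusted p 0.92), while JAG1 fell by 0.41.

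Among the receptors, NOTCH2 held 62.6% to 71.0% of the summed TPM of NOTCH1, NOTCH2 and NOTCH3 in the siRNA libraries and 78.8% to 81.3% in the shRNA libraries. NOTCH1 held 10.7% and 11.1% in shCON and 6.97% and 7.98% in shETS1, while the share of NOTCH3 was 8.04% and 8.30% for the controls against 12.9% and 13.2% for the knockdown. The ratio of NOTCH3 to NOTCH1 counts was 0.566 and 0.562 in shCON and 1.39 and 1.24 in shETS1. In the siRNA table that ratio was 0.0407 and 0.0552 in the controls and 0.0524 and 0.0501 in the knockdown, which overlapped.

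**Figure D3:**
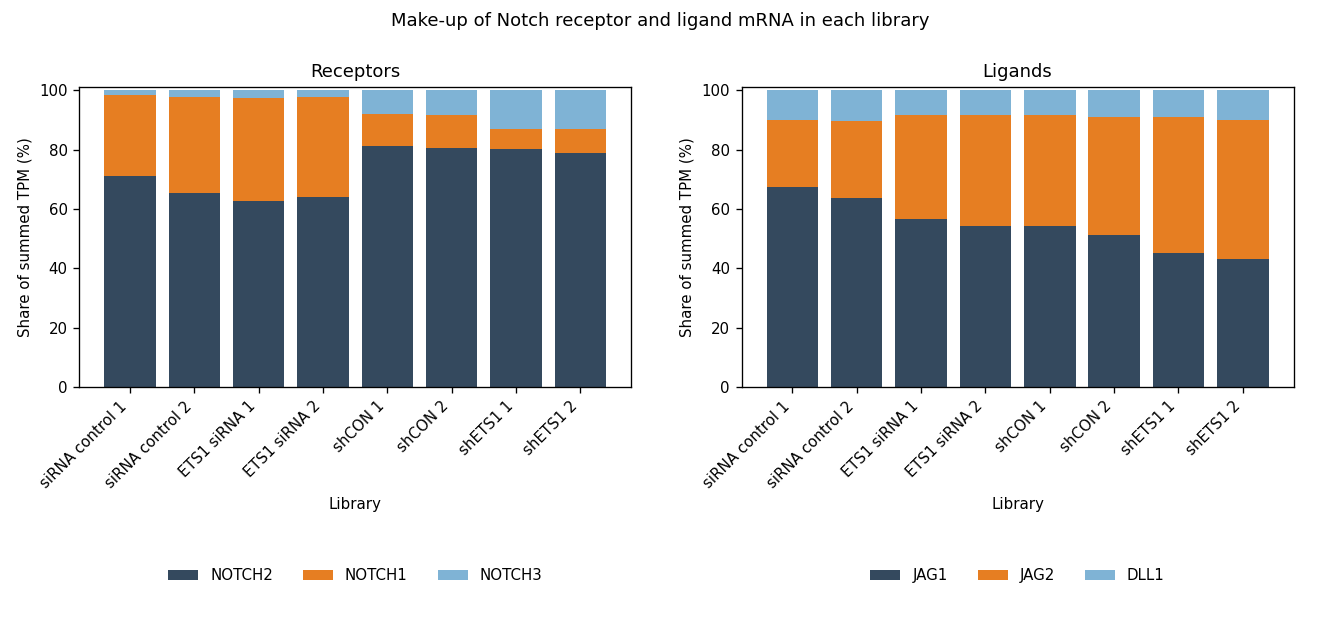
Share of each gene in the summed TPM of the 3 receptors (left) and of the 3 ligands (right), in percent (vertical axis), for each of the 8 libraries (horizontal axis). In both tables the JAG1 share is smaller and the JAG2 share larger in the knockdown than in the control libraries, and in shETS1 the NOTCH3 share exceeds that of NOTCH1.

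Beyond the 10 members, 47 genes of the wider pathway were examined in 6 lists by role. After siRNA 43 of them could be tested and 3 were called, 2 higher and 1 lower (6.98% of the list, beside 3.41% of all genes). There were 9 at an unadjusted p under 0.05 in edgeR, beside 2721 of all 14742 genes, and the median log2 fold change was 0.02. After shRNA 42 could be tested and 26 were called, 12 higher and 14 lower (61.9%, beside 60.6% of all genes), with a median of -0.02. The difference between the experiments was called for 21 of 44 genes (47.7%, beside 34.8%), with the shRNA value above the siRNA value for 9 and below it for 12. These differences come from the fit of all 8 libraries, whose common dispersion of 0.0109 lies below the 0.0192 of the siRNA libraries. Differences of single wider genes given below carry the same limit.

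Of the other receptors and ligands, 4 of 6 were tested in each table, with 1 called higher after siRNA and 2 after shRNA. These are 25% and 50% of those tested, beside 3.41% and 60.6% of all genes. DLK2, a membrane protein related to the Delta ligands that is known to restrain Notch signalling, was at 38.7 and 45.6 CPM in siRNA control and at 69.2 and 78.0 CPM after ETS1 siRNA. It rose by 0.81 after siRNA (SE 0.13, adjusted p 0.033) and by 0.31 after shRNA (SE 0.08, adjusted p 0.0026). Its levels with the hairpins were 45.8 and 48.1 CPM in shCON and 58.8 and 57.6 CPM in shETS1, so its groups did not overlap in either table. DLK2 overlaps ABCC10 on the opposite strand.

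The cleavage list holds the ADAM proteases that cut the receptor outside the membrane and the γ-secretase subunits that cut it within. After siRNA 0 of 8 were called, with 0 at an unadjusted p under 0.05 in edgeR and 0 called with DESeq2. After shRNA 5 of 8 were called, 4 higher and 1 lower (62.5%, beside 60.6% of all genes). The lower one was NCSTN, the substrate-binding subunit nicastrin, at 62.2 and 58.1 CPM in shCON and at 42.9 and 51.5 CPM in shETS1, which fell by 0.35 (SE 0.09, adjusted p 0.0034) and overlaps COPA on the opposite strand. APH1B, a γ-secretase scaffold subunit, was at 4.30 and 4.32 CPM in shCON and at 14.2 and 13.0 CPM in shETS1, a rise of 1.66 (SE 0.14, adjusted p 1.7e-08). PSEN2, a catalytic subunit, was at 14.6 and 14 CPM in shCON and at 21.9 and 20.8 CPM in shETS1, and it rose by 0.57 (SE 0.10, adjusted p 0.00014).

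Of the enzymes that transfer sugars to the receptor, all 5 were tested, with 1 called higher after siRNA and 1 called higher and 3 lower after shRNA. The shares called were 20% and 80%, beside 3.41% and 60.6% of all genes. With DESeq2 1 of the 5 was called after siRNA, higher, and 1 after shRNA, lower, so the share after shRNA depends on the test. LFNG, the Fringe glycosyltransferase known to favour Delta over Jagged signals, was at 17.4 and 17.7 CPM in siRNA control and at 30.6 and 33.4 CPM after ETS1 siRNA, a rise of 0.87 (SE 0.14, adjusted p 0.030). In the shRNA table it was at 33.7 and 35.6 CPM in shCON and at 32.1 and 27.6 CPM in shETS1, a log2 fold change of -0.22 (adjusted p 0.059) that was not past the threshold with DESeq2 (adjusted p 0.17). The effects in the experiments differed by -1.11 (SE 0.15, adjusted p 0.00052). The call after siRNA was lost with the replicate number as a block (adjusted p 0.13) and without siRNA control replicate 1 (adjusted p 0.15), with a range of 7.3e-08 to 0.15 over the alternatives.

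In the nuclear complex and its corepressors 5 of 9 were called after shRNA, 2 higher and 3 lower (55.6%, beside 60.6% of all genes). RBPJ, the DNA-binding partner itself, was at 73.7 and 74.9 CPM in shCON and at 66.5 and 69.2 CPM in shETS1, a log2 fold change of -0.13 (95% interval -0.29 to 0.03) that did not pass the test (adjusted p 0.15). The Mastermind co-activator MAML1 fell by 0.54 (SE 0.12, adjusted p 0.00084). SNW1, which associates with the RBPJ complex and also acts in splicing, rose by 0.45 (SE 0.07, adjusted p 4.5e-05), and it overlaps SLIRP on the opposite strand.

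The list of endocytosis and degradation had 12 of 13 genes tested, with 1 called lower after siRNA and 8 called after shRNA, 2 higher and 6 lower. These made up 8.33% and 66.7% of those tested, beside 3.41% and 60.6% of all genes. MIB1, a ubiquitin ligase that drives ligand endocytosis in the sending cell, was at 79.5 and 75.6 CPM in siRNA control and at 47.4 and 39.5 CPM after ETS1 siRNA, a fall of 0.84 on the log2 scale (SE 0.13, adjusted p 0.030). After shRNA its log2 fold change was 0.08 (95% interval -0.07 to 0.23, adjusted p 0.37), and the effects differed by 0.90 (adjusted p 0.0013). Without siRNA control replicate 1 the calls of MIB1 (adjusted p 0.18) and DLK2 (adjusted p 0.35) after siRNA were lost, and the ranges over the alternatives were 3.9e-08 to 0.18 and 1.9e-07 to 0.35.

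After shRNA the endocytic inhibitors of the receptor NUMB and NUMBL fell by 0.67 (adjusted p 5.9e-06) and 0.76 (adjusted p 0.00051). NUMB was at 94.4 and 83.7 CPM in shCON and at 51.5 and 60.5 CPM in shETS1. The ubiquitin ligases NEURL1B and DTX3L fell by 1.42 (adjusted p 9.9e-07) and 0.91 (adjusted p 3.4e-08), and DTX3L overlaps PARP9 on the opposite strand. FBXW7, the ligase component that marks the Notch intracellular part for degradation, was at 41.4 and 42.9 CPM in shCON and at 68.1 and 62.8 CPM in shETS1, a rise of 0.64 (SE 0.08, adjusted p 3.1e-06). After siRNA the log2 fold change of FBXW7 was -0.50 (adjusted p 0.17), and the effects differed by 1.12 (SE 0.18, adjusted p 0.0013).

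Of the other HES and HEY factors 5 of 6 were tested after siRNA and 0 were called, with 2 at an unadjusted p under 0.05 in edgeR and 0 called with DESeq2. After shRNA 4 were tested and 2 were called, 1 higher and 1 lower (50%, beside 60.6% of all genes). HES2, a HES repressor, was at 35.3 and 36.9 CPM in shCON and at 93.4 and 90.9 CPM in shETS1, a rise of 1.35 (SE 0.08, adjusted p 1.8e-10) beside the log2 fold change of 0.01 of HES1 in the same libraries. After siRNA HES2 was at 33.1 and 26.7 CPM beside 18.9 and 25.1 CPM in the control, which is 0.44 on the log2 scale (SE 0.18, adjusted p 0.25).

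**Figure D4:**
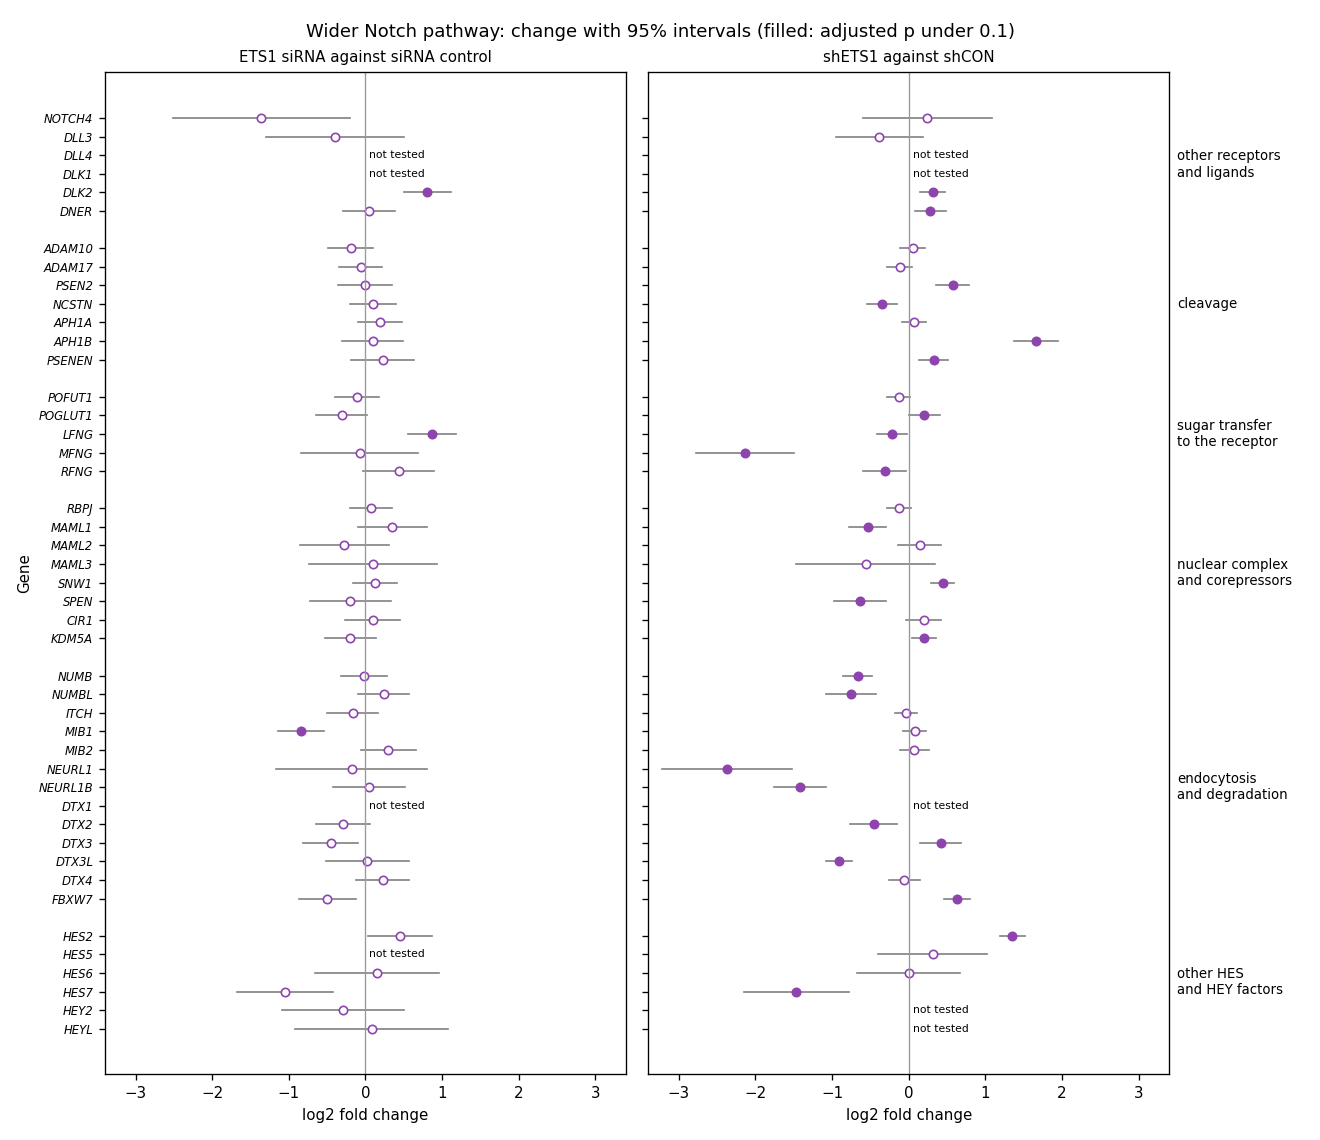
Log2 fold change (horizontal axis) of 45 genes of the wider Notch pathway (vertical axis, grouped by role) after ETS1 siRNA (left) and in shETS1 (right), with lines for 95% intervals of edgeR's quasi-likelihood fit. Filled points passed an adjusted p of 0.1: 3 after siRNA (DLK2, LFNG and MIB1) and 24 after shRNA.

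Squamous differentiation, the process that Notch is known to drive in this tissue, was read from 10 genes. After siRNA 6 were tested and 1 was called (16.7%, beside 3.41% of all genes). It was KRT13, a keratin of differentiating layers, which rose by 1.22 (SE 0.22, adjusted p 0.043) from 4.23 and 6.49 CPM to 12.3 and 12.4 CPM. That call was lost with the replicate number as a block (adjusted p 0.12) and without siRNA control replicate 1 (0.93, adjusted p 0.27), with a range of 9.9e-10 to 0.27 over the alternatives. After shRNA 9 were tested and 8 were called, 7 higher and 1 lower (beside 29.7% and 30.9% of all genes), and with DESeq2 5 were called, all higher. The 1 that was lower was FLG, which encodes filaggrin of the outermost layers, with 40 and 21 counts in shCON and 14 and 11 in shETS1, a log2 fold change of -1.19 (adjusted p 0.020, and 0.12 with DESeq2). KRT13 was at 54.4 and 61.4 CPM in shCON and at 304.8 and 283 CPM in shETS1, a rise of 2.34 (adjusted p 3.9e-13).

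TGM1, the transglutaminase that cross-links the cell envelope, was at 21.6 and 21.6 CPM in shCON and at 40.6 and 35.9 CPM in shETS1, a rise of 0.82 (adjusted p 9.2e-07). CDKN1A, a cell cycle inhibitor and a known Notch target in keratinocytes, rose by 0.33 (adjusted p 0.0041). SPINK5, a protease inhibitor of upper layers, rose by 0.34 (adjusted p 0.082), a call lost with library size only, without a filter, with DESeq2, in the fit of all 8 libraries, with the block, at an adjusted p under 0.05, and without shCON replicate 1, shCON replicate 2 or shETS1 replicate 1 (adjusted p 0.18, 0.22 and 0.42), with a range of 0.024 to 0.42 over the alternatives.

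The squamous epithelial markers moved with the shRNA groups as well. After shRNA 5 of the 6 squamous epithelial markers were called (83.3%, beside 60.6% of all genes), 4 higher (KRT5, KRT6A, KRT14 and KRT17) and 1 lower (TP63, by 0.40). The summed level of the 6 was 14500 and 14600 CPM in shCON and 24000 and 23700 CPM in shETS1. After siRNA 0 of the 6 were called, with 3 at an unadjusted p under 0.05 in edgeR and 3 (KRT5, KRT14 and KRT17) called higher with DESeq2, and the sums were 14300 and 18900 CPM in the controls and 25500 and 21600 CPM in the knockdown. None of the 6 was at 0 in any library. Their part in the changes of the Notch genes was not tested.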

How the data were processed

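RNA was sequenced from 8 SCC25 libraries, 2 in each of 4 groups. Per the submitters' processing notes and the study's methods, the authors aligned reads to GRCh37 with TopHat2 2.1.1 and Bowtie2 2.2.6, counted them per gene with featureCounts 1.5.0, and deposited raw counts in 2 tables (siRNA and shRNA). Strand and multi-mapping settings are not given in the sources used here. No column was left unused.

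Counts were analysed in R 4.3.3 with edgeR 4.0.16 (filterByExpr, TMM scaling, quasi-likelihood test, Benjamini-Hochberg adjustment over all genes, called at an adjusted p under 0.1). Each knockdown was fitted in its own 4 libraries, and the difference between them in all 8. SE and 95% intervals were derived from the F statistic. CPM divide counts by the TMM-scaled library size within a table, and TPM use union exon lengths from GENCODE annotation lifted to GRCh37 (33514 of 56638 symbols matched by current and 1892 by older names). The analysis was tested on simulated data. Total counts of 15954616 to 25953213 set the precision, and intervals cover the spread between libraries only.

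Named genes were the 10 members, ETS1, and in each comparison up to 12 called wider-pathway genes and up to 4 called squamous differentiation genes by smallest adjusted p among those with a mean of at least 5 CPM. RBPJ, NOTCH2NL, NCSTN, FLG and the marker genes were named outside this rule, after their values were seen, as were repeats of named genes in the other experiment. Some genes of the wider lists are counted but not reported by name or drawn here. The members and lists were chosen with earlier results of these data known. Alternatives were other scalings, filters, DESeq2 1.42.0, all libraries in one fit, a replicate block, a stricter threshold, leaving out each library, and another gene length. Promoters were taken from RefSeq (GRCh38.p14) and only their own coordinates were used.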

Additional observations from a re-analysis of the deposited data

Results flagged for a closer look

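Among the Notch genes, 2 differed between the knockdown experiments in the test of the difference itself, the shRNA effect minus the siRNA effect in one edgeR fit of all 8 libraries. These are 20% of the 10 members, beside 34.8% of all 17190 genes tested, so the members were not called more often than genes at large. With the replicate number as a block, 0 members were called. For JAG2 the difference was -0.44 on the log2 scale (adjusted p 0.046), from 0.52 after siRNA to 0.10 after shRNA. Both siRNA knockdown libraries and both shETS1 libraries were above their controls in CPM. The shRNA value was -0.02 with library size only, where the median over all genes was -0.125. For HEY1 the difference was 1.94 (adjusted p 0.098), on 5 to 25 counts per library. HEY1 did not pass the low-count filter in the siRNA libraries alone and was included here by a filter over all 8. Without siRNA control replicate 1 the values were -0.32 (adjusted p 0.15) for JAG2 and 0.94 (adjusted p 0.51) for HEY1. The cause of these differences was not tested.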

How the results depend on the processing

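The calls of NOTCH1 and JAG1 after shRNA held under every alternative run. With structural RNAs and mitochondrial genes left out before scaling, 0 members were called after siRNA and 6 after shRNA, the same numbers as with them kept. After siRNA, where 0 members were called, 1 was called without a filter, with at least 10 counts in every library, among protein-coding genes of at least 1 TPM and with DESeq2 (JAG2 each time), and 2 with all 8 libraries in one fit. For the wider pathway the 3 calls after siRNA became 6 without a filter and 7 with all 8 libraries. After shRNA 2 of the 6 members (NOTCH1 and JAG1) were still called with all 8 libraries in one fit. That fit had a common dispersion of 0.0109, below that of the siRNA libraries (0.0192) and above that of the shRNA libraries (0.00402). Calls gained after siRNA or lost after shRNA in the fit of all 8 are to be read with that difference. The 2 members that differed between experiments became 1 with library size only, at least 10 counts, protein-coding genes of at least 1 TPM or an adjusted p under 0.05. Leaving out 1 library changed the number of calls in each comparison, among the members and over all genes alike. Such fits have 1 library left in a group, so their counts of calls are not given here. Calls over all genes after siRNA, 502 with the settings of the results above, were 1466 without a filter, 797 with DESeq2 and 2166 with all 8 libraries.

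Signs turned for small values. After shRNA these were JAG2 (-0.024) and HES1 (-0.11) with library size only, HES1 with all 8 libraries (-0.0031) and DLL1 among protein-coding genes (0.0027). For the difference they were NRARP with library size only (-0.074) and without a filter (-0.0029), and NOTCH2 with at least 10 counts (0.018) and among protein-coding genes (0.021). Leaving out 1 library gave ranges across 0 after siRNA for NOTCH1 (-0.42 to 0.49), NOTCH2 (-0.68 to 0.14), NOTCH3 (-0.37 to 0.63) and HES4 (-0.066 to 1.12), after shRNA for DLL1 (-0.056 to 0.019) and HES1 (-0.11 to 0.13), and for the difference for NOTCH2 (-0.38 to 0.45), NOTCH3 (-0.16 to 0.83), HES4 (-0.71 to 0.48) and NRARP (-0.29 to 0.36). Where an arm had 1 library left, it was assumed to vary like the other groups. The cause was not tested. With another gene length, 176 of 180 pairs of members kept their order in TPM, and those that changed were NOTCH1 and NRARP after ETS1 siRNA, NOTCH2 and HES4 in shCON, and JAG1 with JAG2 and with HES4 in shETS1.

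Replicate numbers are shared between groups, but the labels do not say that they pair the libraries, and deviations of same-numbered libraries correlated at -0.54 (siRNA) and -0.20 (shRNA). With the replicate number as a block, 0 members (1 at an unadjusted p under 0.05 in edgeR) and 2 wider genes were called after siRNA, 5 members after shRNA and 0 members for the difference (2 at an unadjusted p under 0.05), where the sign of NOTCH2 turned (0.048), and 97 of all genes were called after siRNA. With the crossed pairing, chosen after seeing the data, 4 members and 12 wider genes were called after siRNA, 6 members after shRNA and 4 for the difference, where NOTCH2 was at 0.047. The share of all genes called with the crossed pairing is not given here. These counts therefore have no background and cannot be read as a trait of the Notch genes. HEY1, and NOTCH3 in the siRNA libraries, rest on few counts, which limits their precision.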

Other observations

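The ratio of NRARP to HES1 counts, chosen after the values were seen and given without a test, was 0.568 and 0.458 in siRNA control and 0.329 and 0.258 after ETS1 siRNA. It was 0.138 and 0.170 in shCON and 0.101 and 0.131 in shETS1, so both knockdown libraries of each table were below both controls. The ratio of HES4 to HES1 counts was 0.239 and 0.248 in shCON and 0.345 and 0.307 in shETS1, while it overlapped between the siRNA groups (0.356 and 0.547 in the controls, 0.617 and 0.394 after ETS1 siRNA).

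Libraries of one siRNA group tended to differ in one direction for the Notch genes, by unlike amounts. All 10 members had a lower CPM in ETS1 siRNA replicate 2 than in replicate 1, beside 49.7% of all genes, and 8 of the 10 were lower in siRNA control replicate 1 than in replicate 2, beside 50.7% of all genes. In ETS1 siRNA replicates 1 and 2 the gap was wide for NOTCH1 (79.9 and 42.3 CPM). It was small for JAG2 (229.9 and 223.5 CPM) and for HEY1 (8 and 7 counts). The 10 genes are not independent replicates.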
